A study of Mus musculus with 28 samples.

Results

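The genes described here are the amino acid transporter families SLC1, SLC3, SLC6, SLC7, SLC36, SLC38 and SLC43 of the mouse. They are the 61 of 49492 gene symbols in the deposited read counts whose name is a numbered member of one of those 7 families. The study sequenced mRNA from hand-scraped epithelium of the gastric corpus, the acid-secreting body of the stomach, in 28 libraries. Villin-PPARD mice carry a transgene for PPARD, a nuclear receptor activated by fatty acids, under the villin promoter, which is known mainly for its activity in the epithelium of the intestine, and were set against WT littermates. Each genotype had 5 libraries at 10 weeks, 4 at 25 weeks and 5 at 55 weeks. The labels name no other allele or treatment and do not say from which species the transgene was taken. Nor do they say that each library came from a separate animal, so p-values measure the spread between libraries, which may be partly technical.

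Amino acids cross the plasma membrane on carriers that differ in what they carry and in what drives them. The light chains of family 7 are exchangers that reach the membrane only when joined to a heavy chain of family 3, either Slc3a2 (4F2hc or CD98) or Slc3a1 (rBAT). Families 1, 6 and 38 mostly use the sodium gradient, some carriers of family 36 use protons, and some of family 43 let amino acids move down their own gradient. In the gastric corpus, amino acids are known to stimulate acid secretion, and the light chain Slc7a8 has been located to the basolateral membrane of parietal cells.

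Total counts were 10982888 to 30891108 per library. Ppard was counted at 101 to 125 CPM in villin-PPARD mice, against 65.7 to 83.6 CPM in WT mice, at 10 weeks. The genotypes overlapped at 25 weeks (79.7 to 99.6 CPM in villin-PPARD mice, against 60.3 to 80.5 CPM in WT mice) and at 55 weeks (84.8 to 102 CPM in villin-PPARD mice, against 72.2 to 85.6 CPM in WT mice). Ppard had log2 differences of 0.56, 0.31 and 0.23 at 10, 25 and 55 weeks, and Vil1, the gene whose promoter drives the transgene, had 1.95, 2.07 and 3.28. CPM values here are TMM-normalized. The stomach label was met by the corpus genes Atp4a of parietal cells (9874 to 11330 CPM in WT mice, at 10 weeks) and Pgc of chief cells, while the intestinal gene Sis had no count in any library. WT replicates 2 and 3 at 10 weeks were more alike than any other pair of replicates (chi-square per degree of freedom of 3.95, against 13.8 to 150), and still differed by more than sampling noise, so both were kept. Villin-PPARD replicate 4 at 25 weeks stood apart from the other libraries of its group in 2 members, Slc6a14 and Slc1a3. A library group written in the column names splits the 10-week mice into replicates 1 to 3 and replicates 4 and 5 and sets all 55-week libraries apart from nearly all 25-week ones. WT replicate 3 at 25 weeks has no group in its column name and is called a replacement there.

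Of the 61 members, 57 had a count in at least 1 library and 39 passed the filter on low counts and were tested. The summed counts of all members made up 0.209% to 0.247% of all counts in villin-PPARD mice at 55 weeks, against 0.116% to 0.149% in WT mice, and the 2 groups did not overlap. At 10 weeks the shares were 0.161% to 0.175% in villin-PPARD mice, against 0.143% to 0.161% in WT mice, which overlap, and at 25 weeks 0.169% to 0.175%, against 0.129% to 0.163%. These are shares of raw totals without TMM scaling, and raw shares of most genes rise where very abundant transcripts fall. At 55 weeks Pgc had a mean of 683 CPM in villin-PPARD mice, against 51080 CPM in WT mice. The part of such falls in the members' share was not tested. With edgeR's quasi-likelihood F test and Benjamini-Hochberg adjustment over all 15812 genes tested, 16 members differed between the genotypes at 10 weeks, where 34% of all genes did. The number was 21 at 25 weeks, where 39.6% of all genes were called, and 28 at 55 weeks, where 59.3% were. By direction, 8 members were higher and 8 lower at 10 weeks (all genes 17.9% and 16.2%), 12 were higher and 9 lower at 25 weeks (21% and 18.6%), and 14 were higher and 14 lower at 55 weeks (31.7% and 27.6%). The median log2 difference of the tested members was -0.13, -0.06 and -0.01 at 10, 25 and 55 weeks, beside -0.03, -0.01 and 0.03 over all genes. Within the library groups at 10 weeks, 4 members were higher and 4 lower in replicates 1 to 3, where 19% of all genes were called, and 4 higher and 1 lower in replicates 4 and 5, where 11.7% were. With scaling by library size alone, which moved the median of all genes by 0.04, 0.16 and 0.40 on the log2 scale at the 3 ages, 8, 12 and 17 members were higher and 7, 9 and 12 lower; of all calls 61.7%, 74.5% and 78.9% were then higher, against 52.5%, 53% and 53.4% with TMM. Under scaling by library size alone 31.5%, 41.3% and 69.3% of all genes were called at the 3 ages. In bulk RNA, fewer cells of a type and less RNA per cell cannot be told apart.

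Differences of 2-fold or more were commonest at 55 weeks. No member called higher at 10 weeks reached 2-fold (all genes 3.63%), against 4 at 25 weeks (5.29%) and 8 at 55 weeks (12.6%). Among the members called lower, 4, 6 and 10 reached 2-fold at 10, 25 and 55 weeks (all genes 3.11%, 6.03% and 13.1%). The 2 genotypes did not overlap in 15 members at 10 weeks (all genes 25.6%), 18 at 25 weeks (27.3%) and 25 at 55 weeks (43.3%). In total 33 members were called at 1 or more ages and 13 at all 3, and no member was called in opposite directions at different ages. The matching counts over all genes were not taken, so these counts cannot be set against a background. At the single ages 34%, 39.6% and 59.3% of all genes were called. Slc1a4, Slc6a6, Slc6a9, Slc7a1, Slc7a7 and Slc7a11 were higher in villin-PPARD mice at all 3 ages. Slc7a2, Slc7a8, Slc38a3, Slc38a4, Slc38a5 and Slc43a2 were among those lower at all 3 ages. Slc1a2, Slc36a1, Slc36a2, Slc38a6, Slc38a7 and Slc43a3 were called at no age. Of these 6, Slc36a1 was called lower with DESeq2's size factors at 25 and 55 weeks (-0.28 and -0.24, adjusted p = 0.0387 and 0.0301). Slc38a6 and Slc38a7 were called higher at 55 weeks with scaling by library size alone (0.59 and 0.49, adjusted p = 3.1e-04 and 4.9e-05). The family 6 genes Slc6a20a and Slc6a20b, whose symbols end in a letter, fall outside the name rule and are not counted above. Both were called in opposite directions at different ages. Slc6a20a, a carrier of proline, had log2 differences of 0.97 ± 0.17 (adjusted p = 1.0e-04) at 10 weeks, 0.64 ± 0.19 (adjusted p = 0.00988) at 25 weeks, and -0.55 ± 0.17 (adjusted p = 0.00875) at the age of 55 weeks. Slc6a20b had 0.62 ± 0.22 (adjusted p = 0.0295) at 10 weeks, 0.07 ± 0.25 (adjusted p = 0.850) at 25 weeks, and -1.16 ± 0.23 (adjusted p = 6.6e-05) at the age of 55 weeks.

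**Figure D1:**
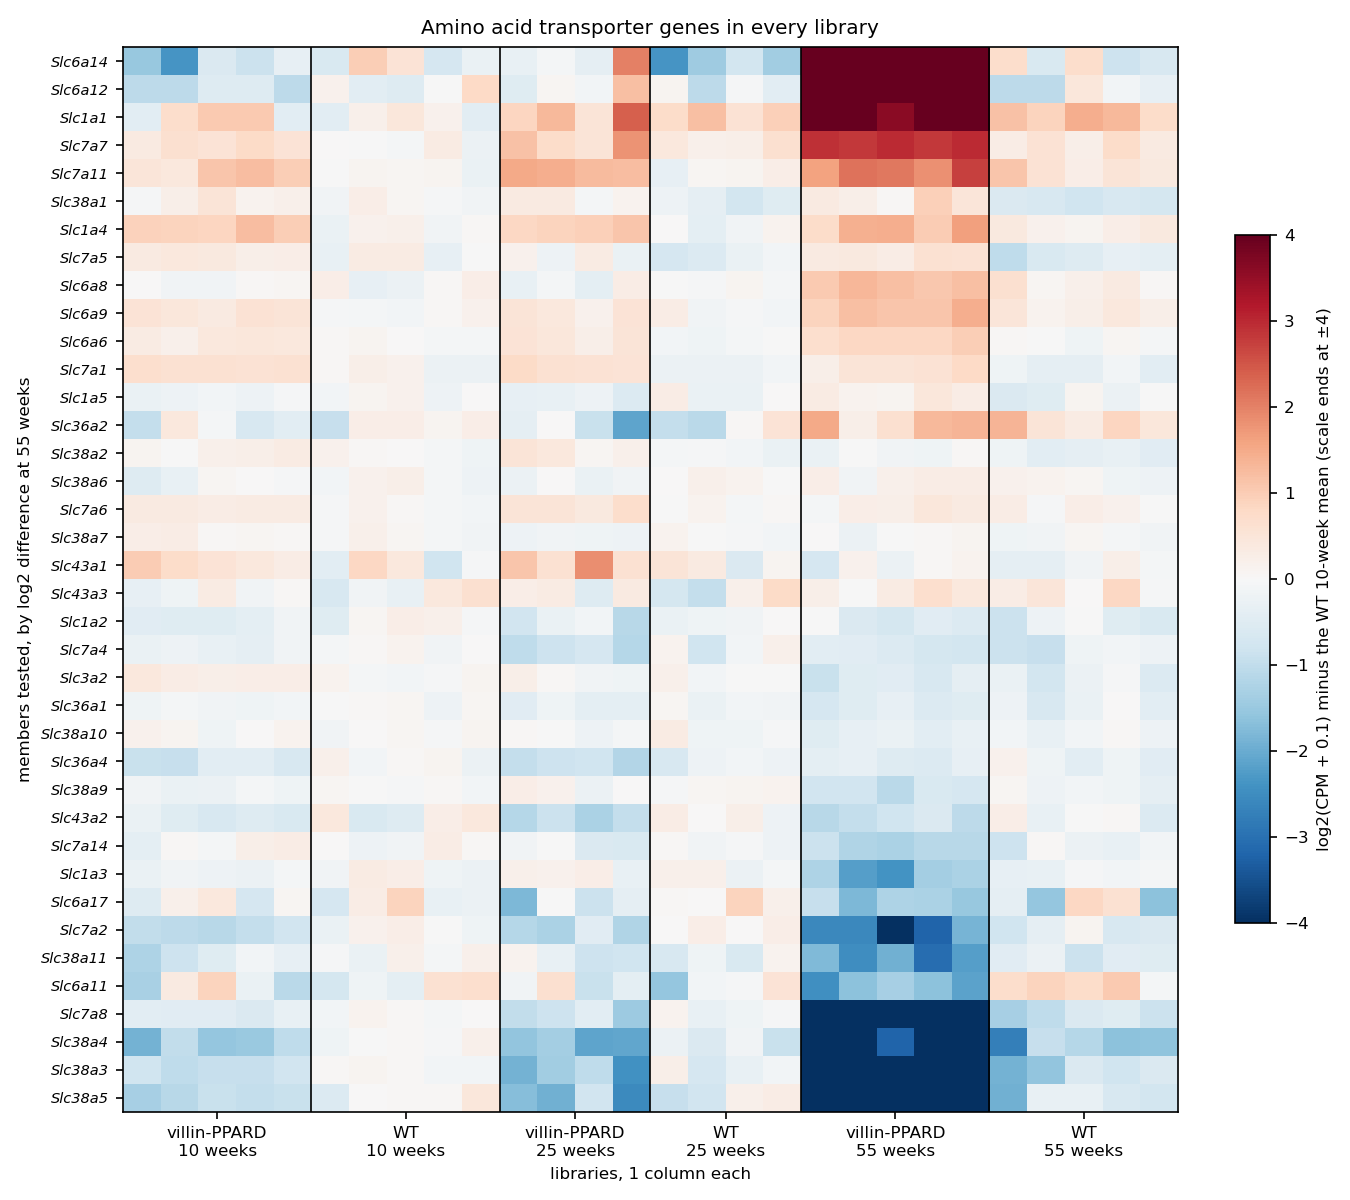
Log2(CPM + 0.1) of 38 of the 39 members tested, minus the mean of the 5 WT libraries at 10 weeks, in every library (columns, grouped by genotype and age) and ordered by the log2 difference at 55 weeks; the colour scale ends at ±4. The 5 villin-PPARD libraries at 55 weeks hold the deepest colours, red for Slc6a14, Slc6a12 and Slc1a1 and blue for Slc38a5, Slc38a3, Slc38a4 and Slc7a8.

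**Figure D2:**
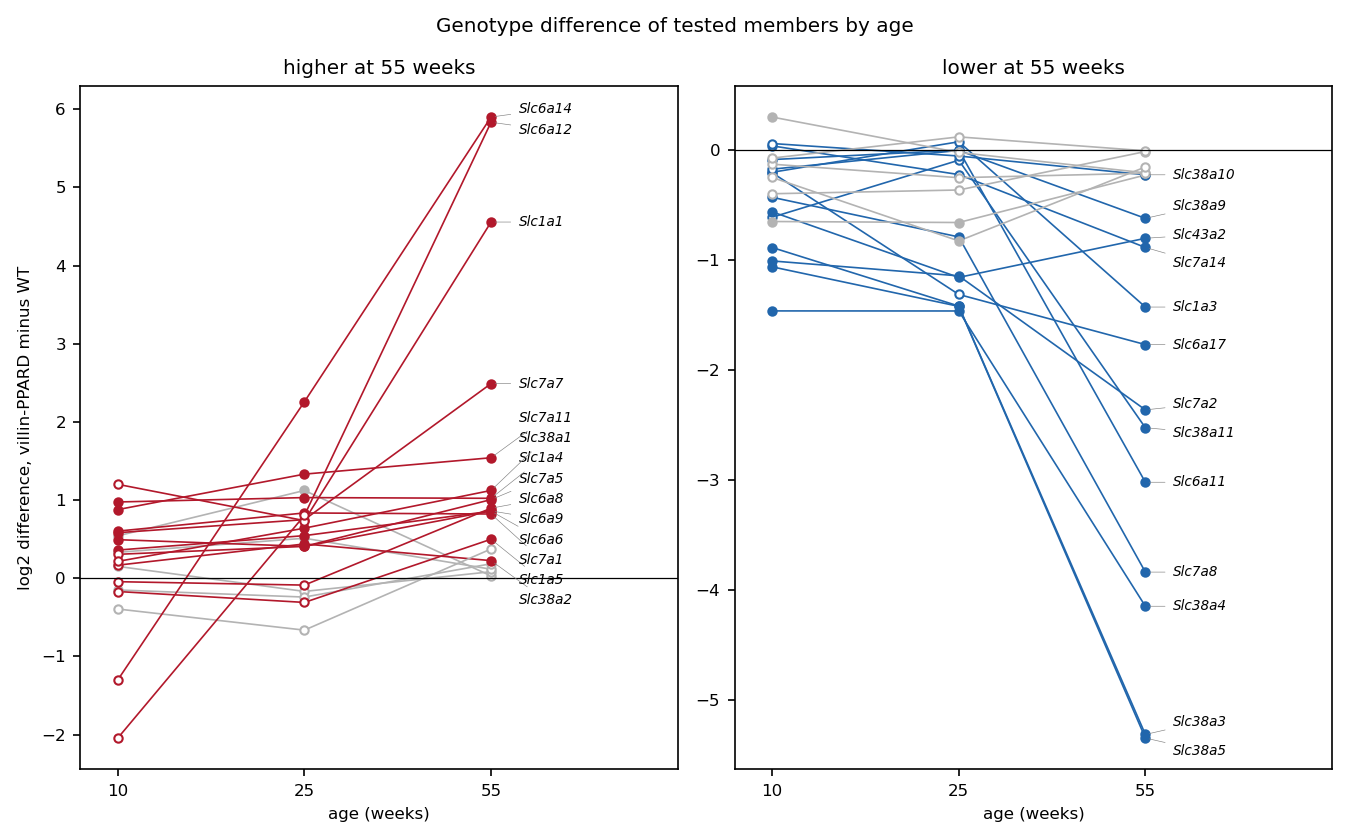
Log2 difference (villin-PPARD minus WT) of 38 tested members against age in weeks, with members higher at 55 weeks on the left and lower ones on the right; filled points passed an adjusted p under 0.05, and members not called at 55 weeks are grey. Slc6a14 reached 5.90 and Slc38a5 -5.35 at 55 weeks, while Slc1a4 stayed between 0.98 and 1.03 with TMM scaling.

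Markers of several cell types also differed between the genotypes. Summed parietal cell markers (19 genes, 14, 14 and 16 of them called lower at the 3 ages) were 15310 to 17810 CPM in villin-PPARD mice, against 20720 to 23000 CPM in WT mice, at 10 weeks. At 55 weeks they were 2757 to 4283 CPM in villin-PPARD mice, against 10670 to 14700 CPM in WT mice. Chief cell markers (14 genes, 12 tested, 7, 8 and 11 lower) were 3752 to 13190 CPM in villin-PPARD mice, against 26830 to 99870 CPM in WT mice, at 55 weeks. Mucous neck and metaplasia markers (14 genes, 3, 9 and 11 higher) were 32360 to 38800 CPM in villin-PPARD mice, against 5887 to 8167 CPM in WT mice, at 55 weeks, proliferation markers (25 genes, 15, 24 and 25 higher) 802 to 987 CPM in villin-PPARD mice, against 283 to 308 CPM in WT mice, and surface mucous markers 41730 to 82200 CPM in villin-PPARD mice, against 163800 to 217000 CPM in WT mice. Each of these 55-week differences gave the smallest p that the two-sided exact permutation test of 5 against 5 libraries allows, 0.00794 (0.0198 adjusted over 45 tests). At 55 weeks the villin-PPARD libraries thus had less parietal, chief and surface mucous cell signal and more neck cell and proliferation signal. At 10 weeks only 3 of the 14 mucous neck and metaplasia genes were called higher, where 17.9% of all genes were. Of 4 tested erythroid genes 2, 4 and 4 were lower at the 3 ages. The part of cell types in any member's difference was not tested. Endocrine markers were also lower (47.1 to 154 CPM in villin-PPARD mice, against 712 to 1386 CPM in WT mice, at 55 weeks), and intestinal absorptive markers were 676 to 786 CPM in villin-PPARD mice, against 847 to 1367 CPM in WT mice, although 7 of their 14 tested genes were higher and 5 lower at 55 weeks (median log2 difference 0.64), with Sis and Lct at or near 0. Of other cells, B and plasma cell markers were 561 to 689 CPM in villin-PPARD mice, against 324 to 443 CPM in WT mice, at 55 weeks, and neuronal and glial markers 18.2 to 32.4 CPM in villin-PPARD mice, against 8.86 to 14.5 CPM in WT mice, although 2 of their 9 tested genes were higher and 6 lower (median log2 difference -1.36).

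The promoters of the members that were higher at all ages were set beside those of members that were lower at all ages, because these are the groups the results turn on. RefSeq (GRCm38.p6) gave windows of 250 bases before to 50 after a gene's start for 43 of the 61 members, and 4 motifs were searched on both strands. The letters TGATGNAA, the C/EBP-ATF response element through which ATF4 acts on its targets, stood in 3.97% of all 32851 windows, and 4.51% of the 27025 genes with an entry held it in at least 1 window. Among the members higher at all 3 ages, 3 of the 5 with an entry held it, Slc7a11, Slc1a4 and Slc7a7, and among those lower at all 3 ages 0 of the 4 with an entry did. Over all members it was held by 4 of 43, the other being Slc6a21, which had no read in any library. A window of each of 5 genes is given 5′ to 3′ on the strand of the gene, with the matches to this motif in capitals: Slc7a11 (chr3:50443564-50443863, minus strand), Slc1a4 (chr11:20332664-20332963, minus), Slc7a7 (chr14:54417895-54418194, minus; 1 of several windows of this gene), Slc7a8 (chr14:54781837-54782136, minus) and Slc38a5 (chrX:8271131-8271430, plus).
Slc7a11 promoter: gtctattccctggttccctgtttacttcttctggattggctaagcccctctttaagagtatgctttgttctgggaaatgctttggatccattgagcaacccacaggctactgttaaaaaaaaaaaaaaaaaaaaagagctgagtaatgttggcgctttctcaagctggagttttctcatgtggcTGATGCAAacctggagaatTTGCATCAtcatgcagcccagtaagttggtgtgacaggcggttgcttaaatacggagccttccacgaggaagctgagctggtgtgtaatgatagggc
Slc1a4 promoter: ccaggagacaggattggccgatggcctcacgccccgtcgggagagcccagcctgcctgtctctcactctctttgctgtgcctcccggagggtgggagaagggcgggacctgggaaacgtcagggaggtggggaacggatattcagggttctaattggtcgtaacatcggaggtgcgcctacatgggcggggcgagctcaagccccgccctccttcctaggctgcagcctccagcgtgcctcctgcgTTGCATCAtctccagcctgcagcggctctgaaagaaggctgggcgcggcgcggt
Slc7a7 promoter: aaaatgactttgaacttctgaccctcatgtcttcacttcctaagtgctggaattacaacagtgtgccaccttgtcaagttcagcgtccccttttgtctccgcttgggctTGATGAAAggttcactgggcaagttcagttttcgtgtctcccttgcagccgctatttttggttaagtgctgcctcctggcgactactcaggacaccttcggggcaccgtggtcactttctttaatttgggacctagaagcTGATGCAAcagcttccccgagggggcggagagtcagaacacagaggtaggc
Slc7a8 promoter: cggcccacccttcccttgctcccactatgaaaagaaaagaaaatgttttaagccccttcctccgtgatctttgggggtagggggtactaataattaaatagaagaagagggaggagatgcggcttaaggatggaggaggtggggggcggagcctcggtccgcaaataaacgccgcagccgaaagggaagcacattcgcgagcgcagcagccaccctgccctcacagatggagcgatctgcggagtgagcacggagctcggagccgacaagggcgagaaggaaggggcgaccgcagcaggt
Slc38a5 promoter: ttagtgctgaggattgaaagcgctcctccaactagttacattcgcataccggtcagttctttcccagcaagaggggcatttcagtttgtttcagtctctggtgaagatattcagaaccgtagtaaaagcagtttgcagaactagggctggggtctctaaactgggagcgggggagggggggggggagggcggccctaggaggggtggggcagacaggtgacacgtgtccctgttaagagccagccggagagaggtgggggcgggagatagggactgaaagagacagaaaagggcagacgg

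In Slc7a11 the matches began 66 and 47 bases before the start site, in Slc1a4 4 bases before it, and in the printed window of Slc7a7 141 bases and 1 base before it. Slc7a7 has further windows with other start sites. That at chr14:54417653-54417952 held 1 match, 243 bases before its start, and the rest held none. This match is the same TGATGCAA that lies 1 base before the start in the printed window, because the windows overlap. A gene with more windows has more chances to hold a match. The windows of Slc7a8 and Slc38a5 hold none. The antioxidant response element core TGACNNNGC stood in windows of 14% of all genes, of 9 of the 43 members, and of Slc6a9 and Slc7a1 among the 5 higher members. The E-box CACGTG stood in windows of 8.09% of all genes, of 9 of the 43 members, and of Slc38a5 among the lower members, and the PPAR response element in those of 0.0481% of genes and of none of the 43 members. RefSeq start sites can differ from the ends of the GENCODE genes given with the results, and a match is a run of letters in a short window, not a site of binding.

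Of the heavy chains, Slc3a2 (chr19:8706882-8723369, minus strand; positions are GRCm38 with GENCODE M21 genes) had the highest level per kilobase of exon among the members in 5 of the 6 groups. At 10 weeks Slc3a2 had 238, 222, 211, 217 and 216 CPM in villin-PPARD mice, against 196, 168, 166, 175 and 193 CPM in WT mice. At 25 weeks Slc3a2 had 211, 184, 164 and 160 CPM in villin-PPARD mice, against 208, 167, 179 and 178 CPM in WT mice. At 55 weeks Slc3a2 had 96.7, 128, 130, 115 and 139.6 CPM in villin-PPARD mice, against 149.7, 108, 152, 174 and 122 CPM in WT mice. The genotypes did not overlap at 10 weeks and overlapped at both later ages, with log2 differences (± SE) of 0.30 ± 0.11 (adjusted p = 0.0388) at 10 weeks, -0.03 ± 0.12 (adjusted p = 0.888) at 25 weeks, and -0.21 ± 0.11 (adjusted p = 0.102) at the age of 55 weeks. The call at 10 weeks was lost when any 1 of 8 libraries was left out, namely any villin-PPARD replicate or WT replicate 2, 3 or 4 (adjusted p 0.0527 to 0.0925), and at 55 weeks Slc3a2 was called lower without villin-PPARD replicate 5 (-0.28, adjusted p = 0.0386) or WT replicate 2 (-0.29, adjusted p = 0.0222). With scaling by library size alone the sign of Slc3a2 turned at 25 weeks (0.13, adjusted p = 0.390) and at 55 weeks (0.18, adjusted p = 0.112). Slc3a1 (chr17:85028376-85064236, plus strand), the heavy chain of kidney and intestine, was below the filter, at 0.126, 0.180, 0.0891, 0.132 and 0.0550 CPM in villin-PPARD mice, against 0.303, 0.689, 0.297, 0.0521 and 0.420 CPM in WT mice, at 10 weeks. At 25 weeks Slc3a1 had 0.287, 0.171, 0.0898 and 0.0745 CPM in villin-PPARD mice, against 0.184, 0.104, 0.295 and 0.485 CPM in WT mice. At 55 weeks Slc3a1 had 0.285, 0.0910, 0.193, 0.112 and 0.183 CPM in villin-PPARD mice, against 0.05004, 0.0739, 0.535, 0.272 and 0.554 CPM in WT mice. At most 13 reads per library lay behind these Slc3a1 values. In the fit with no filter the log2 differences of Slc3a1 were -1.50 (adjusted p = 0.0818), -0.78 (adjusted p = 0.484) and -0.63 (adjusted p = 0.411) at 10, 25 and 55 weeks. In all, 26.5% of the exon length of Slc3a1 overlaps Prepl on the opposite strand, which the unstranded kit cannot separate. Prepl had 23.4 to 27.1 CPM in villin-PPARD mice, against 28.05 to 30.9 CPM in WT mice, at 10 weeks. Its log2 differences were -0.24, -0.27 and -0.30 at 10, 25 and 55 weeks. The part of Prepl in the Slc3a1 values was not tested.

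Among the light chains, the largest loss was in Slc7a8 (chr14:54722209-54781946, minus strand), the LAT2 exchanger of neutral amino acids. At 10 weeks Slc7a8 had 144, 139.8, 140.3, 129.7 and 157 CPM in villin-PPARD mice, against 176, 212, 197, 183 and 192 CPM in WT mice. At 25 weeks Slc7a8 had 96.0, 108, 143 and 69.3 CPM in villin-PPARD mice, against 213, 156, 169 and 185 CPM in WT mice. At 55 weeks Slc7a8 had 9.69, 9.78, 6.20, 5.70 and 6.56 CPM in villin-PPARD mice, against 75.9, 94.99, 128, 137 and 107 CPM in WT mice. Every villin-PPARD library lay below every WT library at each age, and the log2 differences were -0.43 ± 0.16 (adjusted p = 0.0369) at 10 weeks, -0.79 ± 0.18 (adjusted p = 0.00103) at 25 weeks, and -3.84 ± 0.18 (adjusted p = 3.9e-16) at the age of 55 weeks. The change of the difference from 10 to 55 weeks was -3.41 ± 0.24 (adjusted p = 1.2e-11). The call at 10 weeks was lost without villin-PPARD replicate 1, 2 or 4 or WT replicate 2, 3 or 5 (adjusted p 0.0525 to 0.0847), with no filter (-0.40, adjusted p = 0.105) and with scaling by library size alone (-0.40, adjusted p = 0.0675).

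The opposite direction was seen in Slc7a7 (chr14:54369442-54417780, minus strand), the y+LAT1 light chain that exports arginine and lysine from epithelial cells and is also expressed in macrophages. At 10 weeks Slc7a7 had 2.21, 2.76, 2.54, 2.99 and 2.53 CPM in villin-PPARD mice, against 1.73, 1.70, 1.61, 2.19 and 1.43 CPM in WT mice. At 25 weeks Slc7a7 had 3.97, 2.91, 2.51 and 6.26 CPM in villin-PPARD mice, against 2.32, 1.98, 2.01 and 2.75 CPM in WT mice. At 55 weeks Slc7a7 had 13.5, 12.8, 14.1, 12.8 and 14.1 CPM in villin-PPARD mice, against 2.152, 2.59, 2.05, 2.90 and 2.22 CPM in WT mice. The genotypes did not overlap at 10 and 55 weeks and overlapped at 25 weeks, and the log2 differences were 0.58 ± 0.19 (adjusted p = 0.0171) at 10 weeks, 0.75 ± 0.20 (adjusted p = 0.00460) at 25 weeks, and 2.49 ± 0.17 (adjusted p = 4.4e-13) at the age of 55 weeks. Without the villin-PPARD replicate 4 of that age the calls at 10 and at 25 weeks were lost (0.50, adjusted p = 0.0638, and 0.43, adjusted p = 0.0620). Its exons share 7.00% of their length with Oxa1l on the opposite strand, which the unstranded kit cannot separate. At 55 weeks Oxa1l had 36.04 to 38.8 CPM in villin-PPARD mice, against 25.6 to 32.2 CPM in WT mice (log2 difference 0.35). Summed markers of myeloid cells were 275 to 505 CPM in villin-PPARD mice, against 116 to 129 CPM in WT mice, at 55 weeks, and their part in the Slc7a7 difference was not tested.

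Slc7a11 (chr3:49892526-50443614, minus strand), the xCT light chain that brings in cystine in exchange for glutamate and so feeds glutathione synthesis, was higher at every age. At 10 weeks Slc7a11 had 23.7, 22.97, 36.4, 39.9 and 33.9 CPM in villin-PPARD mice, against 17.0, 18.3, 17.8, 18.2 and 14.1 CPM in WT mice. At 25 weeks Slc7a11 had 48.9, 46.5, 40.8 and 39.9 CPM in villin-PPARD mice, against 13.5, 17.9, 18.3 and 20.3 CPM in WT mice. At 55 weeks Slc7a11 had 51.9, 76.8, 73.5, 61.1 and 114 CPM in villin-PPARD mice, against 36.7, 25.4, 20.4, 24.3 and 22.3 CPM in WT mice. No villin-PPARD library fell to the highest WT value of its age, and the log2 differences were 0.88 ± 0.18 (adjusted p = 5.7e-04) at 10 weeks, 1.33 ± 0.21 (adjusted p = 1.7e-05) at 25 weeks, and 1.54 ± 0.18 (adjusted p = 3.3e-08) at the age of 55 weeks. Without 10-week replicates 4 and 5 the 10-week difference was 0.63 (adjusted p = 0.0620).

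Slc7a6 (chr8:106168857-106198706, plus strand), the y+LAT2 light chain that exchanges arginine for glutamine, differed at the 2 younger ages. At 10 weeks Slc7a6 had 33.0, 33.2, 31.6, 32.0 and 32.0 CPM in villin-PPARD mice, against 25.0, 29.2, 26.4, 24.1 and 23.8 CPM in WT mice. At 25 weeks Slc7a6 had 36.4, 36.7, 33.4 and 41.8 CPM in villin-PPARD mice, against 25.1, 28.1, 24.4 and 26.4 CPM in WT mice. At 55 weeks Slc7a6 had 24.4, 30.97, 30.1, 34.8 and 32.6 CPM in villin-PPARD mice, against 31.7, 24.8, 30.6, 28.6 and 25.3 CPM in WT mice. The genotypes were apart at 10 and 25 weeks and overlapped at 55 weeks, with log2 differences of 0.33 ± 0.09 (adjusted p = 0.00506) at 10 weeks, 0.51 ± 0.10 (adjusted p = 2.3e-04) at 25 weeks, and 0.12 ± 0.09 (adjusted p = 0.273) at the age of 55 weeks. With scaling by library size alone the 55-week value was 0.51 (adjusted p = 2.4e-05). Slc7a5, the LAT1 exchanger of large neutral amino acids, had log2 differences of 0.31 ± 0.14 (adjusted p = 0.0896) at 10 weeks, 0.41 ± 0.16 (adjusted p = 0.0417) at 25 weeks, and 1.01 ± 0.14 (adjusted p = 4.8e-07) at the age of 55 weeks. The 25-week call of Slc7a5 was lost with DESeq2's size factors. Of the 10 light chain genes 5 were tested, and 3, 4 and 3 of them were higher and 1, 1 and 1 lower at 10, 25 and 55 weeks. Among all genes tested, 17.9%, 21% and 31.7% were higher and 16.2%, 18.6% and 27.6% lower.

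Per kilobase of exon, the light chains changed places. In villin-PPARD mice at 55 weeks Slc7a8 had a level of 1.52 ± 0.397 CPM per kb, against 21.7 ± 4.96 CPM per kb in WT mice (SD, n = 5 each). Slc7a5 had 9.56 ± 0.931 CPM per kb, against 4.76 ± 0.839, and Slc7a7 had 4.07 ± 0.201, against 0.718 ± 0.107. Slc7a8 made up 5.56% of the summed level per kb of the 5 light chains in villin-PPARD mice at 55 weeks, against 61.6% in WT mice, and Slc7a5 was first, with 35.1%, against 13.5%. At 25 weeks the share of Slc7a8 was 51.5% in villin-PPARD mice, against 73.5% in WT mice, and at 10 weeks 60%, against 72.6%. With the length of the longest transcript in place of all exons the 55-week shares of Slc7a8 were 5.43% in villin-PPARD mice, against 61.9% in WT mice. Slc3a2 itself had 34.5 ± 4.71 CPM per kb in villin-PPARD mice at 55 weeks, against 40.0 ± 7.35 CPM per kb in WT mice, a difference smaller than the WT SD.

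**Figure D3:**
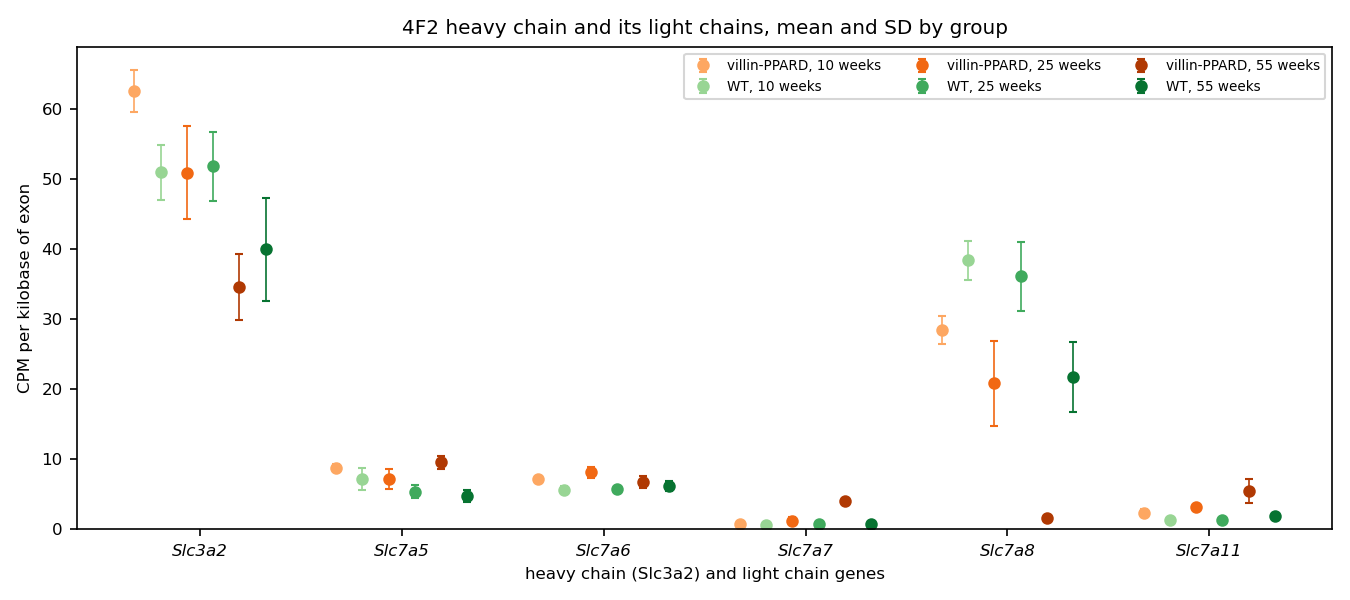
Mean and SD of the level in CPM per kilobase of exon for the heavy chain gene Slc3a2 and 5 light chain genes, by genotype and age (n = 4 or 5 libraries per group). Slc7a8 stands at 1.52 CPM per kb in villin-PPARD mice at 55 weeks, against 21.7 in WT mice, below Slc7a5, Slc7a6, Slc7a7 and Slc7a11 of the same villin-PPARD mice.

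The cationic amino acid carriers, which work without a heavy chain and take up arginine, lysine and ornithine, split by direction. Slc7a1 (chr5:148327410-148399904, minus strand), the broadly expressed CAT1, had 133, 126, 127, 125 and 127 CPM in villin-PPARD mice, against 85.9, 98.5, 94.4, 69.9 and 70.6 CPM in WT mice, at 10 weeks. At 25 weeks Slc7a1 had 142, 128, 125 and 121 CPM in villin-PPARD mice, against 70.2, 70.7, 71.1 and 77.0 CPM in WT mice. At 55 weeks Slc7a1 had 98.5, 119, 118, 124 and 145 CPM in villin-PPARD mice, against 73.1, 64.2, 64.9, 77.6 and 62.5 CPM in WT mice. All villin-PPARD values lay above all WT values of the same age, and the log2 differences were 0.60 ± 0.10 (adjusted p = 2.3e-05) at 10 weeks, 0.83 ± 0.11 (adjusted p = 1.0e-06) at 25 weeks, and 0.82 ± 0.10 (adjusted p = 2.5e-08) at the age of 55 weeks. The second carrier, Slc7a2 (chr8:40862396-40922308, plus strand), known from liver and from activated macrophages, had 2.27, 2.16, 2.05, 2.33 and 2.64 CPM in villin-PPARD mice, against 3.77, 5.14, 5.56, 4.53 and 4.03 CPM in WT mice, at 10 weeks. At 25 weeks Slc7a2 had 2.01, 1.83, 3.28 and 1.94 CPM in villin-PPARD mice, against 4.65, 5.52, 4.61 and 5.55 CPM in WT mice. At 55 weeks Slc7a2 had 0.684, 0.682, 0.154, 0.410 and 1.18 CPM in villin-PPARD mice, against 2.60, 3.55, 4.90, 2.90 and 3.02 CPM in WT mice. Here all villin-PPARD values lay below all WT values at each age, with log2 differences of -1.01 ± 0.24 (adjusted p = 0.00203) at 10 weeks, -1.15 ± 0.28 (adjusted p = 0.00163) at 25 weeks, and -2.37 ± 0.27 (adjusted p = 1.4e-08) at the age of 55 weeks, so that Slc7a1 and Slc7a2 differed in opposite directions at each of the 3 ages.

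Slc7a4 (chr16:17572018-17583214, minus strand), a relative whose transport activity is uncertain, had 13.4, 13.7, 12.96, 12.5 and 14.5 CPM in villin-PPARD mice, against 15.2, 16.5, 17.6, 14.3 and 16.3 CPM in WT mice, at 10 weeks. At 25 weeks Slc7a4 had 7.89, 8.96, 10.0 and 7.22 CPM in villin-PPARD mice, against 17.7, 9.17, 14.9 and 18.4 CPM in WT mice. At 55 weeks Slc7a4 had 11.9, 11.6, 10.9, 9.83 and 9.46 CPM in villin-PPARD mice, against 8.76, 8.43, 13.99, 14.8 and 13.8 CPM in WT mice. The genotypes overlapped at each age, and Slc7a4 was called at 25 weeks only, with log2 differences of -0.25 ± 0.15 (adjusted p = 0.196) at 10 weeks, -0.83 ± 0.17 (adjusted p = 4.0e-04) at 25 weeks, and -0.16 ± 0.15 (adjusted p = 0.379) at the age of 55 weeks. It shares 13.3% of its exon length with P2rx6 on the opposite strand, which had 0.223 to 0.478 CPM in villin-PPARD mice, against 0.393 to 0.917 CPM in WT mice, at 25 weeks. Slc7a14, a carrier of neurons and lysosomes, was called at 55 weeks only (-0.89 ± 0.19, adjusted p = 2.2e-04).

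In family 1, Slc1a4 (chr11:20302180-20332713, minus strand), the ASCT1 exchanger of alanine, serine and cysteine, was about as far above WT at 10 weeks as at 55 weeks with TMM scaling. At 10 weeks Slc1a4 had 27.2, 26.6, 25.9, 34.0 and 28.5 CPM in villin-PPARD mice, against 11.9, 16.2, 16.7, 12.9 and 14.7 CPM in WT mice. At 25 weeks Slc1a4 had 25.6, 27.0, 27.7 and 31.2 CPM in villin-PPARD mice, against 14.5, 10.8, 12.96 and 15.8 CPM in WT mice. At 55 weeks Slc1a4 had 23.9, 38.3, 39.7, 29.2 and 44.6 CPM in villin-PPARD mice, against 18.8, 16.0, 15.4, 17.2 and 18.7 CPM in WT mice. The genotypes did not overlap at any age, and the log2 differences were 0.98 ± 0.13 (adjusted p = 1.9e-06) at 10 weeks, 1.03 ± 0.15 (adjusted p = 5.8e-06) at 25 weeks, and 1.02 ± 0.13 (adjusted p = 1.2e-07) at the age of 55 weeks. The change from 10 to 55 weeks was 0.05 ± 0.19 (adjusted p = 0.876), which was not called. With scaling by library size alone the log2 differences of Slc1a4 were 1.01, 1.20 and 1.41 at 10, 25 and 55 weeks. Slc1a5, the ASCT2 exchanger that takes up glutamine, was called at 55 weeks only, with log2 differences of -0.17 ± 0.12 (adjusted p = 0.277) at 10 weeks, -0.31 ± 0.13 (adjusted p = 0.0632) at 25 weeks, and 0.50 ± 0.12 (adjusted p = 5.8e-04) at the age of 55 weeks.

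The glutamate and aspartate importers differed at 55 weeks alone, 1 upward and 1 downward among the 3 tested (all genes 31.7% and 27.6%). Slc1a1 (chr19:28835049-28913960, plus strand), the EAAC1 importer of epithelia and neurons, had 0, 0.1199, 0.178, 0.176 and 0 CPM in villin-PPARD mice, against 0, 0.0530, 0.0848, 0.0521 and 0 CPM in WT mice, at 10 weeks. At 25 weeks Slc1a1 had 0.143, 0.228, 0.0898 and 0.596 CPM in villin-PPARD mice, against 0.122, 0.208, 0.0982 and 0.162 CPM in WT mice. At 55 weeks Slc1a1 had 5.47, 3.68, 1.54, 6.22 and 6.32 CPM in villin-PPARD mice, against 0.200, 0.148, 0.267, 0.226 and 0.123 CPM in WT mice. The villin-PPARD mice at 55 weeks held 722 reads of Slc1a1, against 16 in WT mice, and did not overlap them. The log2 difference was 4.56 ± 0.44 (adjusted p = 4.9e-10), and at 10 and 25 weeks, with at most 8 reads in a library, 1.20 ± 0.90 (adjusted p = 0.317) and 0.74 ± 0.73 (adjusted p = 0.442). In all, 31.9% of the exon length of Slc1a1 overlaps 4430402I18Rik on the opposite strand, which had 0.385 to 0.955 CPM in villin-PPARD mice, against 0.05004 to 1.13 CPM in WT mice, at 55 weeks (log2 difference -0.03, adjusted p = 0.962).

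Slc1a3 (chr15:8634124-8710764, minus strand), the GLAST importer, had 30.8, 33.8, 32.3, 32.1 and 35.4 CPM in villin-PPARD mice, against 33.5, 46.6, 44.6, 33.0 and 31.7 CPM in WT mice, at 10 weeks. At 25 weeks Slc1a3 had 43.3, 42.3, 44.5 and 30.2 CPM in villin-PPARD mice, against 43.1, 42.9, 31.5 and 35.7 CPM in WT mice. At 55 weeks Slc1a3 had 15.9, 8.10, 6.97, 14.5 and 15.6 CPM in villin-PPARD mice, against 29.7, 30.5, 36.1, 34.6 and 35.1 CPM in WT mice. The genotypes overlapped at 10 and 25 weeks and were apart at 55 weeks, with log2 differences of -0.21 ± 0.17 (adjusted p = 0.359) at 10 weeks, 0.07 ± 0.19 (adjusted p = 0.792) at 25 weeks, and -1.43 ± 0.17 (adjusted p = 4.7e-08) at the age of 55 weeks. Slc1a2 (GLT-1) was called at no age, with log2 differences of -0.40, -0.37 and -0.02.

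Family 6 held the largest increases. Slc6a14 (chrX:21714896-21742355, plus strand), the ATB0,+ carrier that concentrates neutral and cationic amino acids with sodium and chloride and is known from colon, lung and several epithelial cancers, had 0.189, 0.0600, 0.446, 0.351 and 0.550 CPM in villin-PPARD mice, against 0.433, 1.54, 1.10, 0.417 and 0.588 CPM in WT mice, at 10 weeks. At 25 weeks Slc6a14 had 0.573, 0.685, 0.539 and 3.20 CPM in villin-PPARD mice, against 0.0612, 0.208, 0.393 and 0.216 CPM in WT mice. At 55 weeks Slc6a14 had 41.5, 38.6, 31.5, 49.5 and 57.7 CPM in villin-PPARD mice, against 1.25, 0.444, 1.25, 0.362 and 0.431 CPM in WT mice. The genotypes overlapped at 10 weeks and were apart at 25 and 55 weeks, and the log2 differences were -1.30 ± 0.59 (adjusted p = 0.0902) at 10 weeks, 2.26 ± 0.71 (adjusted p = 0.0140) at 25 weeks, and 5.90 ± 0.40 (adjusted p = 2.1e-12) at the age of 55 weeks. The 25-week call was lost without villin-PPARD replicate 4 (1.32, adjusted p = 0.1196) and by limma-voom (1.58, adjusted p = 0.0728). The WT libraries at 25 weeks held 1, 2, 8 and 4 reads of Slc6a14. Per kilobase Slc6a14 stood at 12.7 ± 2.95 CPM per kb in villin-PPARD mice at 55 weeks, the 8th highest level among the members there, against 0.218 ± 0.134 CPM per kb in WT mice.

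Among the carriers of osmolytes, creatine and transmitters, Slc6a12 (chr6:121343076-121365775, plus strand), the betaine and GABA carrier BGT1, had 0, 0, 0.0446, 0.0439 and 0 CPM in villin-PPARD mice, against 0.130, 0.0530, 0.0424, 0.104 and 0.252 CPM in WT mice, at 10 weeks. At 25 weeks Slc6a12 had 0.0478, 0.114, 0.0898 and 0.372 CPM in villin-PPARD mice, against 0.122, 0, 0.0982 and 0.0539 CPM in WT mice. At 55 weeks Slc6a12 had 4.39, 3.78, 4.39, 3.13 and 3.32 CPM in villin-PPARD mice, against 0, 0, 0.178, 0.0905 and 0.0615 CPM in WT mice. The younger groups held at most 5 reads per library and were not called (log2 differences -2.04 ± 0.83, adjusted p = 0.0566 at 10 weeks and 0.80 ± 0.74, adjusted p = 0.414 at 25 weeks), and without villin-PPARD replicate 3 or WT replicate 3 the 10-week value was called lower (adjusted p = 0.0445 and 0.0434). At 55 weeks 562 reads in villin-PPARD mice stood against 5 in WT mice, and the log2 difference was 5.83 ± 0.45 (adjusted p = 3.7e-12). Slc6a6 (chr6:91684053-91759066, plus strand), the taurine carrier, had 218, 201, 231, 236 and 231 CPM in villin-PPARD mice, against 179.7, 189, 174, 164 and 164 CPM in WT mice, at 10 weeks. At 25 weeks Slc6a6 had 253, 238, 207 and 247 CPM in villin-PPARD mice, against 160.2, 154, 163 and 171 CPM in WT mice. At 55 weeks Slc6a6 had 274, 306, 310.4, 311 and 342 CPM in villin-PPARD mice, against 179.8, 171, 154, 182 and 166 CPM in WT mice. No overlap between genotypes was seen at any age, and the log2 differences were 0.36 ± 0.08 (adjusted p = 7.4e-04) at 10 weeks, 0.54 ± 0.09 (adjusted p = 2.0e-05) at 25 weeks, and 0.86 ± 0.08 (adjusted p = 1.4e-10) at the age of 55 weeks.

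Slc6a8 (chrX:73673150-73682502, plus strand), the creatine carrier, had 60.4, 53.8, 54.7, 61.8 and 62.7 CPM in villin-PPARD mice, against 71.7, 47.2, 50.8, 61.4 and 71.7 CPM in WT mice, at 10 weeks. At 25 weeks Slc6a8 had 48.9, 56.9, 45.4 and 73.7 CPM in villin-PPARD mice, against 59.3, 58.0, 65.1 and 56.0 CPM in WT mice. At 55 weeks Slc6a8 had 124, 151, 137, 126 and 139 CPM in villin-PPARD mice, against 93.8, 63.1, 68.7, 76.8 and 61.0 CPM in WT mice. Only the 55-week groups were apart among these 3 ages, and the log2 differences were -0.04 ± 0.13 (adjusted p = 0.817) at 10 weeks, -0.09 ± 0.14 (adjusted p = 0.650) at 25 weeks, and 0.90 ± 0.13 (adjusted p = 5.0e-07) at the age of 55 weeks. The GABA carrier Slc6a11 (GAT3) was lower at 55 weeks, with a log2 difference of -3.02 ± 0.48 (adjusted p = 3.0e-06). Of the 5 tested carriers of this kind 1, 1 and 3 were higher and 1, 1 and 2 lower at 10, 25 and 55 weeks. The shares of all genes were 17.9%, 21% and 31.7% higher and 16.2%, 18.6% and 27.6% lower.

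The glycine carrier Slc6a9 (chr4:117834506-117875198, plus strand, GlyT1) had 144, 136, 126, 147 and 140.2 CPM in villin-PPARD mice, against 95.7, 92.9, 91.3, 101 and 112 CPM in WT mice, at 10 weeks. At 25 weeks Slc6a9 had 142, 132, 112 and 144 CPM in villin-PPARD mice, against 122, 89.7, 95.8 and 91.4 CPM in WT mice. At 55 weeks Slc6a9 had 183, 225, 214, 212 and 269.9 CPM in villin-PPARD mice, against 137, 108, 115, 133 and 115 CPM in WT mice. The genotypes were apart at 10 and 55 weeks and overlapped at 25 weeks, and the log2 differences were 0.49 ± 0.10 (adjusted p = 4.5e-04) at 10 weeks, 0.41 ± 0.11 (adjusted p = 0.00573) at 25 weeks, and 0.86 ± 0.10 (adjusted p = 2.3e-08) at the age of 55 weeks. In villin-PPARD mice at 55 weeks it was the most abundant member per kilobase, at 42.98 ± 6.13 CPM per kb, ahead of Slc6a6 (36.5 ± 2.86) and Slc3a2 (34.5 ± 4.71), neighbours whose SDs overlap, against 23.7 ± 2.41 CPM per kb in WT mice. Exons of Ccdc24 on the opposite strand cover 27.8% of its exon length and had 0.447 to 0.798 CPM in villin-PPARD mice, against 0.05004 to 0.980 CPM in WT mice, at 55 weeks. Slc6a17, a vesicular carrier of neurons, was lower at 55 weeks (-1.77 ± 0.57, adjusted p = 0.00884).

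**Figure D4:**
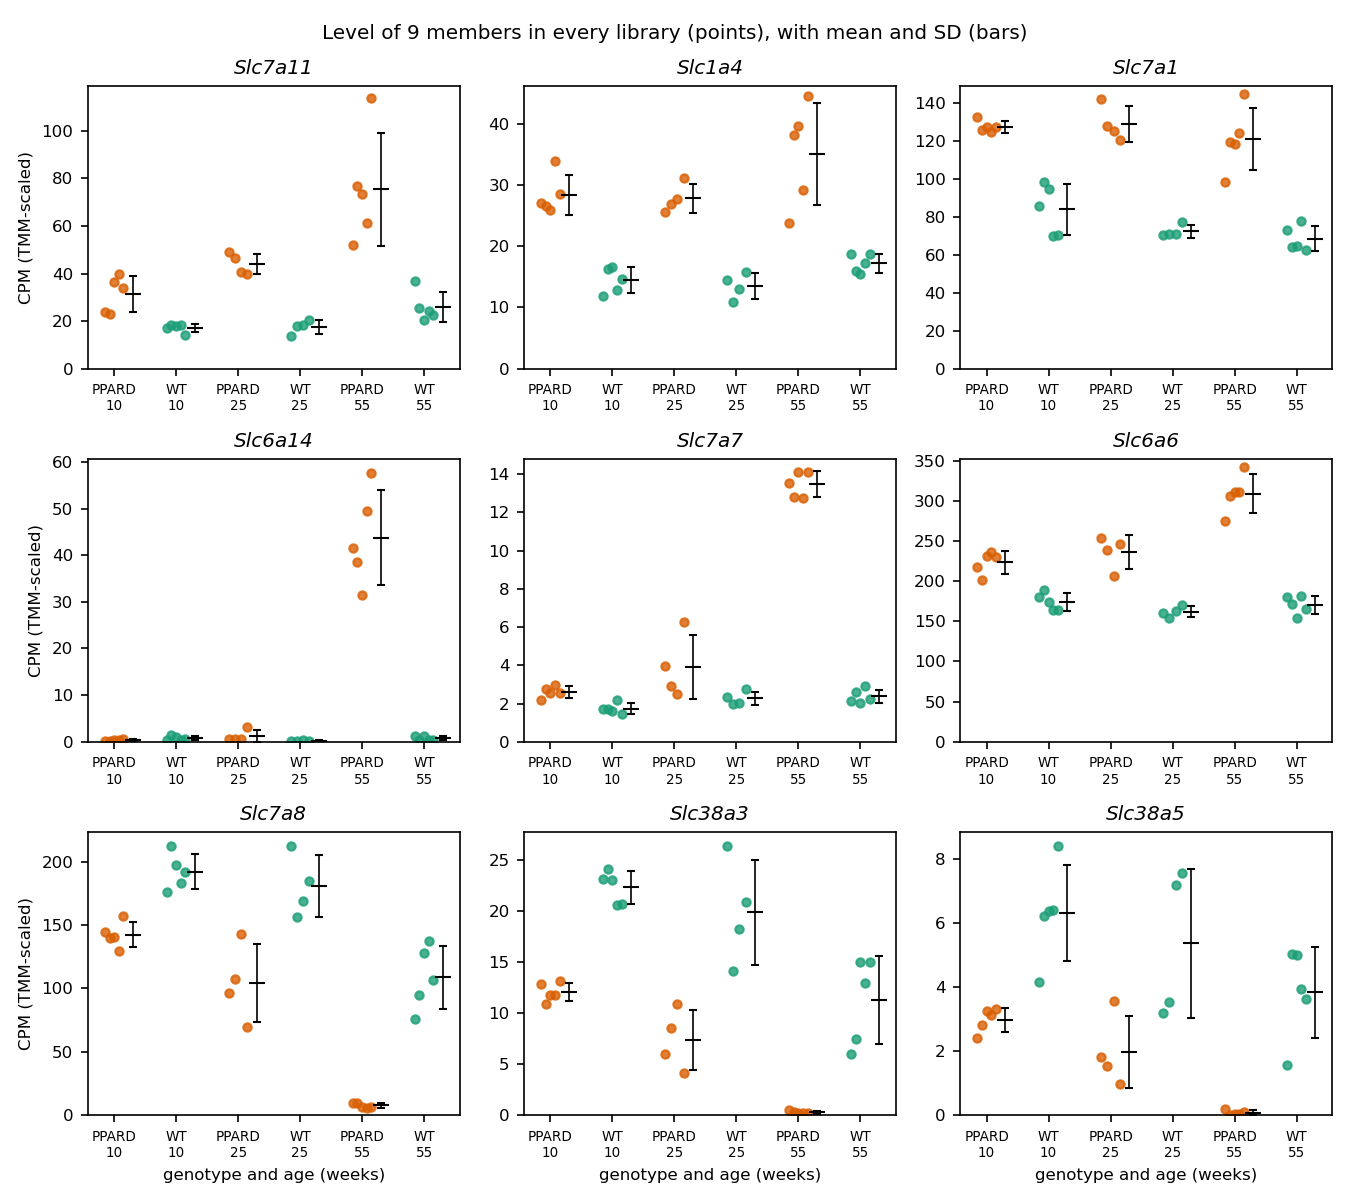
Level in CPM of 9 members in every library (points), with the mean and SD of each group (bars), by genotype and age in weeks; each panel has its own linear axis from 0. Slc1a4, Slc7a1, Slc7a11 and Slc6a6 lie apart at each age, Slc6a14 and Slc7a7 part most widely at 55 weeks, and Slc7a8, Slc38a3 and Slc38a5 are near 0 in villin-PPARD mice at 55 weeks.

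The deepest losses were in the sodium-coupled neutral carriers of family 38. Slc38a3 (chr9:107650634-107669530, minus strand), the SNAT3 carrier of glutamine, asparagine and histidine, had 12.8, 10.9, 11.8, 11.8 and 13.1 CPM in villin-PPARD mice, against 23.2, 24.1, 23.03, 20.6 and 20.7 CPM in WT mice, at 10 weeks. At 25 weeks Slc38a3 had 5.97, 8.50, 10.9 and 4.10 CPM in villin-PPARD mice, against 26.4, 14.1, 18.2 and 20.8 CPM in WT mice. At 55 weeks Slc38a3 had 0.484, 0.273, 0.154, 0.224 and 0.209 CPM in villin-PPARD mice, against 5.96, 7.47, 14.97, 12.9 and 15.01 CPM in WT mice. All villin-PPARD libraries lay below all WT libraries at each age, with log2 differences of -0.89 ± 0.22 (adjusted p = 0.00246) at 10 weeks, -1.42 ± 0.25 (adjusted p = 8.7e-05) at 25 weeks, and -5.32 ± 0.32 (adjusted p = 9.1e-14) at the age of 55 weeks. Its close relative Slc38a5 (chrX:8271133-8280179, plus strand), SNAT5, had 2.40, 2.82, 3.25, 3.12 and 3.30 CPM in villin-PPARD mice, against 4.16, 6.20, 6.36, 6.41 and 8.40 CPM in WT mice, at 10 weeks. At 25 weeks Slc38a5 had 1.82, 1.54, 3.55 and 0.968 CPM in villin-PPARD mice, against 3.18, 3.54, 7.17 and 7.55 CPM in WT mice. At 55 weeks Slc38a5 had 0.199, 0, 0.0385, 0.0373 and 0.105 CPM in villin-PPARD mice, against 1.55, 5.03, 4.99, 3.94 and 3.63 CPM in WT mice. Only 7, 0, 1, 1 and 4 reads lay behind these villin-PPARD values of Slc38a5. The genotypes were apart at 10 and 55 weeks and overlapped at 25 weeks, and the log2 differences were -1.07 ± 0.30 (adjusted p = 0.00759) at 10 weeks, -1.42 ± 0.35 (adjusted p = 0.00224) at 25 weeks, and -5.35 ± 0.47 (adjusted p = 8.1e-11) at the age of 55 weeks. With 10-week replicates 1 to 3 alone, or 4 and 5 alone, the 10-week values kept their direction (-0.94, adjusted p = 0.0935, and -1.20, adjusted p = 0.0901).

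Slc38a4 (chr15:96994820-97055956, minus strand), the SNAT4 carrier known from liver and placenta, had 0.441, 0.899, 0.579, 0.615 and 0.881 CPM in villin-PPARD mice, against 1.69, 1.86, 1.95, 1.82 and 2.18 CPM in WT mice, at 10 weeks. At 25 weeks Slc38a4 had 0.573, 0.685, 0.359 and 0.372 CPM in villin-PPARD mice, against 1.59, 1.25, 1.72 and 0.970 CPM in WT mice. At 55 weeks Slc38a4 had 0, 0, 0.116, 0 and 0.0261 CPM in villin-PPARD mice, against 0.200, 0.961, 0.802, 0.543 and 0.554 CPM in WT mice. Only 4 reads of Slc38a4 in all were counted in the 5 villin-PPARD libraries at 55 weeks, against 47 in WT mice. The groups were apart at each age, and the log2 differences were -1.47 ± 0.32 (adjusted p = 7.5e-04) at 10 weeks, -1.47 ± 0.38 (adjusted p = 0.00335) at 25 weeks, and -4.15 ± 0.54 (adjusted p = 1.3e-07) at the age of 55 weeks. Of the other members of the family, Slc38a1 (SNAT1) was higher at 25 and 55 weeks (0.64 and 1.12), as was Slc38a2 (SNAT2), by 0.44 and 0.23, the second of which was lost with DESeq2's size factors. At 55 weeks Slc38a9, the lysosomal arginine sensor, had -0.62 ± 0.09 (adjusted p = 1.6e-06), Slc38a10 -0.23 ± 0.09 (adjusted p = 0.0374) and Slc38a11 -2.53 ± 0.42 (adjusted p = 5.7e-06). With scaling by library size alone Slc38a10 turned to 0.17 and Slc38a9 to -0.22, and neither was called. Of the 10 tested, 0, 2 and 2 were higher and 3, 3 and 6 lower at 10, 25 and 55 weeks. Over all genes 17.9%, 21% and 31.7% were higher and 16.2%, 18.6% and 27.6% lower.

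Slc43a2 (chr11:75531694-75577575, plus strand), the LAT4 facilitator of branched-chain amino acids and phenylalanine, had 56.4, 48.4, 43.9, 48.0 and 45.2 CPM in villin-PPARD mice, against 91.2, 44.8, 47.7, 82.9 and 91.7 CPM in WT mice, at 10 weeks. At 25 weeks Slc43a2 had 31.1, 37.7, 28.1 and 35.0 CPM in villin-PPARD mice, against 84.7, 69.7, 80.6 and 59.4 CPM in WT mice. At 55 weeks Slc43a2 had 31.9, 35.1, 39.2, 45.2 and 33.2 CPM in villin-PPARD mice, against 81.8, 55.7, 67.6, 70.5 and 46.5 CPM in WT mice. The genotypes overlapped at 10 weeks and were apart at 25 and 55 weeks, with log2 differences of -0.57 ± 0.17 (adjusted p = 0.0128) at 10 weeks, -1.16 ± 0.20 (adjusted p = 4.9e-05) at 25 weeks, and -0.81 ± 0.17 (adjusted p = 2.4e-04) at the age of 55 weeks. Without 10-week replicates 4 and 5 the 10-week value was -0.33 (adjusted p = 0.289). The antisense gene Gm45606 covers 9.18% of its exon length. Of its relatives, Slc43a1 (LAT3) was higher at 25 weeks only (1.12 ± 0.35, adjusted p = 0.0118) and Slc43a3 was not called. The proton-coupled Slc36a4 (chr9:15709738-15743361, plus strand), a high-affinity carrier of proline and tryptophan, had 5.61, 5.46, 7.84, 7.90 and 6.71 CPM in villin-PPARD mice, against 11.99, 9.70, 10.8, 11.4 and 8.90 CPM in WT mice, at 10 weeks. At 25 weeks Slc36a4 had 5.40, 5.88, 5.97 and 4.62 CPM in villin-PPARD mice, against 6.73, 9.17, 9.82 and 9.06 CPM in WT mice. At 55 weeks Slc36a4 had 7.98, 8.37, 7.35, 7.23 and 8.26 CPM in villin-PPARD mice, against 11.8, 9.24, 7.75, 9.42 and 7.57 CPM in WT mice. The genotypes were apart at 10 and 25 weeks and overlapped at 55 weeks, and the log2 differences were -0.65 ± 0.13 (adjusted p = 3.5e-04) at 10 weeks, -0.66 ± 0.15 (adjusted p = 0.00111) at 25 weeks, and -0.23 ± 0.13 (adjusted p = 0.129) at the age of 55 weeks. Slc36a1 and Slc36a2 were called at no age.

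Age was compared within each genotype. In WT mice no member was called by edgeR's test at 25 against 10 weeks (all genes 0.0126%), nor by DESeq2 or limma-voom, and 0 were higher and 4 lower at an unadjusted p under 0.05. In 4 members the 2 ages did not overlap in WT mice (all genes 1.29%). From 10 to 55 weeks 2 were higher and 9 lower in WT mice (all genes 6.43% and 6.26%), 11 in all (12.7%), and in 9 the ages did not overlap (11.4%). By 2-fold or more, 0 were higher and 1 was lower (all genes 2.45% and 0.557%). Those lower included Slc38a4 (-1.68), Slc38a3 (-0.99), Slc7a8 (-0.82) and Slc7a5 (-0.58), and those higher were Slc7a11 (0.60) and Slc6a9 (0.30). Within the second library group alone, with 2 WT libraries at 10 weeks, 0 were higher and 0 lower, and leaving out each of the 10 libraries in turn left 0 to 1 higher and 6 to 10 lower. In villin-PPARD mice 2 members were lower and 0 higher at 25 against 10 weeks (all genes 0.822% and 1.99%), Slc7a4 (-0.65) and Slc38a7 (-0.34), together 2 of 39 where 2.81% of all genes were called. The 2 ages did not overlap in 7 members (all genes 9.13%), and 0 called members reached 2-fold (all genes 0.601% higher and 0.101% lower). Higher at an unadjusted p under 0.05 were 6, by DESeq2's Wald test 1 and by limma-voom 4. From 10 to 55 weeks 11 were higher and 17 lower in villin-PPARD mice (all genes 27.2% and 24.5%), 28 in all (51.7%), and in 26 the ages did not overlap (40.9%). Of these calls 7 higher and 11 lower reached 2-fold (all genes 12.1% and 9.37%), among them Slc6a12 (7.14), Slc6a14 (7.02), Slc1a1 (5.42), Slc38a3 (-5.42), Slc38a5 (-5.01) and Slc7a8 (-4.23). With scaling by library size alone 19 were higher and 12 lower, a setting in which shares of all genes were counted for the genotype differences only.

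The difference between genotypes was itself tested for change with age, in comparisons that share their libraries. From 10 to 25 weeks no member was called by edgeR's test (all genes 0.00632%), with 3 higher and 3 lower at an unadjusted p under 0.05, 1 higher by DESeq2's Wald test and 0 by limma-voom. From 10 to 55 weeks the difference rose in 11 members and fell in 12 (all genes 18.4% and 18%), led by Slc6a12 (7.88 ± 1.01, adjusted p = 3.6e-07) and Slc6a14 (7.20 ± 0.72, adjusted p = 1.2e-08) upward and Slc38a3 (-4.43 ± 0.40, adjusted p = 1.7e-09) and Slc38a5 (-4.28 ± 0.58, adjusted p = 1.2e-06) downward. Within the second library group, with 2 libraries of each genotype at 10 weeks, 5 rose and 6 fell. Changes of 2-fold or more were 4 upward and 9 downward (all genes 8.6% and 9.04%), out of 23 called in all (36.4%). From 25 to 55 weeks the difference rose in 10 and fell in 10 (all genes 14.3% and 14.6%), and with library group as a term, 8 rose and 9 fell. That term cannot adjust this change for library group, because group goes with age in both genotypes here. It mainly sets apart WT replicate 3 at 25 weeks, whose column name calls it a replacement. Here 4 upward and 8 downward changes reached 2-fold (all genes 6.55% and 7.48%), out of 20 called in all (28.9%). Slc1a4 and Slc7a1 were called in neither span with TMM scaling, with changes of 0.05 and 0.22 from 10 to 55 weeks. Several calls lay near the threshold: leaving out 1 of the libraries concerned ended the call from 10 to 55 weeks for Slc1a1 in 14 of 20 cases (adjusted p 0.0502 to 0.227), for Slc6a9 in 12 (to 0.0897) and for Slc7a11 in 11 (to 0.0965). From 25 to 55 weeks it ended the call for Slc6a6 in 10 of 18 cases (adjusted p to 0.0916), for Slc7a4 in 6 (to 0.0790; villin-PPARD replicates 1 and 4 and WT replicates 1 and 4 at 25 weeks, WT replicates 1 and 2 at 55 weeks) and for Slc7a6 in 4 (to 0.0706; villin-PPARD replicate 4 and WT replicate 3 at 25 weeks, replicate 1 of both genotypes at 55 weeks). Slc36a4, not called, was called from 10 to 55 weeks without villin-PPARD replicate 3 or 4 or WT replicate 5 at 10 weeks or WT replicate 1 at 55 weeks (adjusted p 0.0211 to 0.0495), and from 25 to 55 weeks without WT replicate 1 of either age (adjusted p 0.0374 and 0.0460). The 25 to 55 week calls of Slc6a14, Slc6a9 and Slc7a2 were each ended by 1 library, WT replicate 3, WT replicate 1 and villin-PPARD replicate 3 of 25 weeks (adjusted p = 0.117, 0.0899 and 0.0626).

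Genes around the transporters were read from 6 lists, each given by its counts and its median log2 difference at the 3 ages. The shares of all genes beside which these counts stand were 17.9%, 21% and 31.7% higher and 16.2%, 18.6% and 27.6% lower. Of 25 amino acid response genes, targets and parts of the ATF4 pathway, 9, 8 and 7 were higher and 5, 3 and 7 lower at the 3 ages, with medians of 0.14, 0.08 and 0.02. At 55 weeks 7 of 25 in each direction is near the shares of all genes. Trib3 and Atf4, an inhibitor and the transcription factor of that pathway, led at 10 weeks (1.62 and 0.71), Mthfd2 and Aldh18a1, enzymes of folate and proline metabolism, at 25 weeks (0.58 and 0.53), and Aldh18a1 and Ddit3 at 55 weeks (0.80 and -1.29). Atf4 had -0.13 at 55 weeks and was not called. A list of 20 genes was drawn up for glutathione synthesis and the gamma-glutamyl cycle, but also held genes of neither, Hmox1 among them. Of these 20, 7, 6 and 9 were higher and 2, 4 and 4 lower, with medians of 0.12, 0.21 and 0.18. The reductase gene Gsr and Hmox1 led at 10 weeks (0.66 and 0.91) and at 25 weeks (0.81 and 1.01), and Ggt6 and Gpx2 at 55 weeks (2.83 and 1.57). Of 16 tested arginine and polyamine enzymes 4, 6 and 11 were higher and 2 each time lower, with medians of -0.01, 0.11 and 0.84. Paox and Arg2 led at 10 weeks (1.08 and 2.61), Paox and Ass1 at 25 weeks (1.34 and 0.92), and Ass1 and Arg1 at 55 weeks (2.03 and 5.03).

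Of 24 genes of amino acid sensing by mTORC1, the kinase complex that amino acids switch on at the lysosome, 4, 3 and 5 were higher and 8, 8 and 10 lower, with medians of -0.03, -0.18 and -0.27. Rragd and Flcn, a Rag GTPase and its regulator, led at 10 weeks (-1.25 and -0.47), Flcn and Lamtor4 at 25 weeks (-0.88 and -0.71), and Sesn3 and Nprl2 at 55 weeks (1.43 and -0.85). Of 12 tested carriers outside the 7 families 3, 2 and 2 were higher and 4, 1 and 2 lower, with medians of 0.08, -0.12 and -0.13. Slc15a3, a lysosomal peptide and histidine carrier of immune cells, and Slc16a10, the aromatic amino acid carrier TAT1, led at 55 weeks (1.92 and -1.45), and Slc25a22 and Ctns at 10 weeks (0.39 and -0.35) and 25 weeks (0.40 and -0.53). Of 6 tested partners of transporters 2, 3 and 3 were higher and 1, 1 and 2 lower, with medians of 0.23, 0.29 and 0.18. Cd44, whose variant form is known to hold xCT at the membrane, was higher at 25 and 55 weeks (1.59 and 4.49) and is also among the neck cell markers, and Bsg was lower at the 3 ages (-0.35, -0.45 and -0.58). Sqstm1 had 0.57 at 10 weeks.

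The 22 members below the filter were low in every group. The highest group mean was 0.352 CPM for Slc3a1, followed by 0.351 CPM for Slc7a9, the light chain that pairs with Slc3a1. Slc7a9 had 9, 5, 7, 17 and 14 reads in villin-PPARD mice at 55 weeks, against 0, 0, 1, 0 and 0 reads in WT mice. The groups did not overlap. Slc7a9 was picked out after its counts were seen. In the fit with no filter, which tested 18 of the 22, Slc7a9 was called higher at 55 weeks (4.28 (adjusted p = 8.3e-05)) and Slc6a7 lower (-3.69 (adjusted p = 0.00984)). The other 16 were called at no age. Slc7a3, Slc6a4 and Slc6a7 reached group means of 0.211, 0.209 and 0.170 CPM. Slc6a18 and Slc6a19, the absorptive carriers of kidney and intestine, had at most 5 and 4 reads in a library. Slc6a16, Slc6a21, Slc7a12 and Slc7a15 had none in any of the 28 libraries, and a count of 0 allows up to 3 counts, or 0.0971 CPM in the deepest and 0.273 CPM in the shallowest library, counting error only.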

How the data were processed

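RNA of scraped gastric corpus epithelium was sequenced by the submitters with an unstranded poly(A) kit (TruSeq v2), aligned to mm10 with TopHat2 2.0.14 and counted per gene with HTSeq 0.6.1, per the submitters' processing notes, which also name DESeq2; no strand setting or annotation is given in the sources used here. The deposited values are raw read counts per gene symbol, 10982888 to 30891108 per library.

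Genotype and age come from the labels. From these counts, edgeR 4.0.16 (R 4.3.3) fitted 1 quasi-likelihood model to the 28 libraries, with TMM scaling, filterByExpr by group and group means, and 10 contrasts were tested with Benjamini-Hochberg adjustment over 15812 genes at a threshold of 0.05. SEs are the log2 difference over the root of F. CPM use TMM-scaled totals; levels per kb use GENCODE M21 exons (GRCm38). Alternatives used DESeq2 1.42.0, limma 3.58.1 (voom), other scalings and filters, subsets of libraries and each library left out. The steps were tested on simulated data. Cell type marker sums were compared by two-sided exact permutation tests. The limits for a count of 0 cover counting error only, while SEs and SDs also hold the spread between libraries.

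The members and gene lists were chosen with earlier results of these data known. Given in every library are both heavy chains, the 5 called members with the lowest adjusted p in each direction of each genotype comparison (mean of at least 1 CPM in a group), and the 3 in each direction of each change of that difference; of each pathway list the 2 with the lowest adjusted p at each age are named. The values of 1 tested member are not reported here; it stays in the counts.

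Replicate numbers were checked for pairing: over 14 same-numbered pairs the correlations of deviations were -0.422 to 0.229, so numbers were not treated as pairs.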

Additional observations from a re-analysis of the deposited data

Results flagged for a closer look

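In 5 of 132 groups of member values, 1 library lay far from the others; chance gives about 1 in 20 groups. At 25 weeks villin-PPARD replicate 4 had 30.2 CPM of Slc1a3, where the other villin-PPARD libraries had 42.3 to 44.5, and 3.20 CPM of Slc6a14, where the others had 0.539 to 0.685. Villin-PPARD replicate 3 at 25 weeks had 3.28 CPM of Slc7a2, where the others had 1.83 to 2.01. Villin-PPARD replicate 3 at 55 weeks had 0.116 CPM of Slc38a4, against 0 to 0.0261 in the others. WT replicate 4 at 25 weeks had 77.0 CPM of Slc7a1, where the other WT libraries had 70.2 to 71.1.

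The genotype difference itself changed between ages, by the test of that change, in 15 of the members given in every library from 10 to 55 weeks and in 15 from 25 to 55 weeks. Over all genes tested, 36.4% and 28.9% were called in these changes. Members given in every library were chosen partly by low adjusted p in these same comparisons. That choice raises the counts, so they cannot be set against the shares of all genes. From 10 to 55 weeks the log2 difference rose in Slc6a12 (7.88), Slc6a14 (7.20), Slc1a1 (3.36), Slc7a7 (1.91), Slc6a8 (0.94), Slc7a11 (0.66), Slc6a6 (0.50) and Slc6a9 (0.37). It went down in Slc38a3 (-4.43), Slc38a5 (-4.28), Slc7a8 (-3.41), Slc38a4 (-2.68), Slc7a2 (-1.35), Slc1a3 (-1.22) and Slc3a2 (-0.51). From 25 to 55 weeks it rose in Slc6a12 (5.03), Slc1a1 (3.82), Slc6a14 (3.64), Slc7a7 (1.74), Slc6a8 (0.98), Slc7a4 (0.67), Slc6a9 (0.45) and Slc6a6 (0.31), and went down in Slc38a5 (-3.92), Slc38a3 (-3.89), Slc7a8 (-3.05), Slc38a4 (-2.68), Slc1a3 (-1.50), Slc7a2 (-1.22) and Slc7a6 (-0.40). Slc1a1, Slc38a4, Slc38a5, Slc6a12 and Slc6a14 rest on few reads in at least 1 group. Markers of parietal, chief and mucous neck cells also differed most at 55 weeks, and their part in these changes was not tested.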

How the results depend on the processing

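Most members given in every library were chosen for a low adjusted p, and many alternatives left out 1 library only. A large share of unchanged values can follow from that choice and does not extend to the other members. Of 2426 values of the 21 tested members given in every library, under all alternatives, 2266 kept their side of the threshold, 141 were no longer called and 19 were newly called. No called value of these turned its sign. Among values not called, 44 turned sign and stayed uncalled. With library size only, the genotype differences among these were those of Slc3a2 and Slc6a8 at 25 weeks (0.13 and 0.08) and of Slc3a2, Slc36a4 and Slc7a4 at 55 weeks (0.18, 0.17 and 0.25). Of the members not given in every library, Slc38a10, called lower at 55 weeks, turned to 0.17 with library size only and was not called. Counts of members called are given as higher and lower in villin-PPARD against WT, and the cause of a moved count was not tested beyond what its construction shows. For age comparisons and changes of the difference under an alternative, shares of all genes were not counted. With a 2-fold minimum added, 0 higher and 4 lower were left at 10 weeks, 4 higher at 25 weeks and 8 higher at 55 weeks. Without 10-week replicates 4 and 5 the 10-week counts were 3 and 4, in the first library group alone 4 and 4, and in the second 4 and 1. In these settings 21.4%, 19% and 11.7% of all genes were called at 10 weeks. For age in villin-PPARD mice at 25 against 10 weeks, the count higher was 1 with library size only, 1 by DESeq2's Wald test and 4 by limma-voom. The count lower was 0 with the 2-fold minimum, 0 with library size only, 1 with no filter, 4 by the Wald test, 8 by limma-voom, 0 with the replicate block, 1 with a library group term, 0 without 10-week replicates 4 and 5 and 0 in the first library group. At 55 against 10 weeks the 2-fold minimum left 7 higher and 11 lower, and library size only gave 19 higher. In WT mice at 55 against 10 weeks the count higher was 0 with the 2-fold minimum, with no filter, with the library group term, without 10-week replicates 4 and 5 and in the second library group, and 1 by limma-voom. The count lower was 1 with the 2-fold minimum, 4 with the library group term and 0 in the second library group. For the change from 10 to 25 weeks the Wald test gave 1 higher. From 10 to 55 weeks the 2-fold minimum left 4 rising, and the second library group 5 rising and 6 falling. From 25 to 55 weeks the 2-fold minimum left 4 rising.

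With each library left out in turn, the counts were 6 to 8 higher and 7 to 9 lower at 10 weeks, 10 to 12 and 9 to 11 at the age of 25 weeks, and 13 to 14 and 12 to 16 at the age of 55 weeks. They were 0 to 3 and 0 to 4 for villin-PPARD at 25 against 10 weeks, 10 to 12 and 16 to 18 at 55 against 10 weeks, 0 to 1 and 6 to 10 for WT at 55 against 10 weeks, 8 to 12 and 12 to 13 for the change from 10 to 55 weeks, and 7 to 12 and 9 to 11 from 25 to 55 weeks. The replicate numbers are shared only as numbers: in 1 of 14 pairs did a library match its own number best. With the replicate block the counts were 8 and 7 at 10 weeks, 12 and 9 at the age of 25 weeks and 14 and 13 at the age of 55 weeks. With library size only, marker sums moved to log2 ratios of -0.44 for parietal cells at 25 weeks, -0.24 and -0.23 for intestinal absorptive cells at 10 and 55 weeks, -0.89 for endocrine and -1.58 for erythroid cells at 25 weeks, none of them called; to 0.20 for B and plasma cells at 10 weeks and 0.53 for endothelial cells at 55 weeks, both called; and to 0.33 for fibroblasts and smooth muscle at 55 weeks, which reversed. Few reads limit, among others, Slc1a1, Slc38a4, Slc38a5, Slc6a12, Slc6a14 and the 22 members below the filter.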
